A study of Mus musculus with 21 samples.

Results

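Axon guidance ligands and receptors were taken as the protein-coding mouse genes whose symbols place them in the semaphorin (20 genes), plexin (9), Slit (3), Robo (4), netrin (4), Unc5 (4), ephrin-A (5), ephrin-B (3), EphA (9) and EphB (5) families. The symbol patterns matched 66 of the 55487 genes in the count tables, of which 35 encode ligands and 31 encode receptors. Their mRNA was counted in 21 RNA-seq libraries of mesodermal cells sorted on day 4 from embryoid bodies, the aggregates that mouse embryonic stem (ES) cells form as they differentiate. DP cells had both PDGFRalpha and FLK1 on their surface, and SP cells had FLK1 without PDGFRalpha. In the ES cell line named TGET, which carries the reporters T-GFP and Etv2-tdTomato, each gate was divided by tdTomato into negative DP, positive DP, negative SP and positive SP cells, with 3 libraries each. A second set held 3 libraries each of wild-type (WT) DP cells and WT SP cells of the A2lox.Cre line, and 3 of SP cells of the line iETV2, in which doxycycline at 2 µg/ml from day 2.5 induced Etv2. Etv2 is a transcription factor that starts the blood vessel and blood programmes in mesoderm. The labels name no doxycycline for the WT cells, so induced Etv2, the line and the drug cannot be told apart in the second set. All lines had been kept on fibroblast feeders and then without feeders before they differentiated.

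Guidance cues were first described as proteins that attract or repel growing axons, and blood vessels, blood and mesoderm use many of them as well. Semaphorins act through plexins, with neuropilins as coreceptors for the secreted class; Slits bind Robo receptors; netrins bind Unc5 receptors, DCC and neogenin; and ephrins, which stay on the cell surface, bind Eph receptor tyrosine kinases on a neighbouring cell. In vessels, ephrin-B2 is a mark of arteries and EphB4 of veins, plexin-D1 receives Sema3e, Unc5b restrains sprouting, and Robo4 is the Robo receptor of endothelium.

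Counts assigned to genes came to 25045553 to 32777143 per reporter-line library, and the libraries of the second set held 22406153 to 28184904. The 66 genes held 52306 to 81642 and 59881 to 108873 of them, and 3 counts in a library correspond to 0.0915 to 0.134 CPM, the count relative to library size. All levels below are in CPM scaled by edgeR's TMM factors unless said otherwise, and ± on a log2 fold change is its standard error (SE). Levels are compared only within a set, because the sets differed in the share of counts on pseudogenes (12.2 to 14.4% against 0.549 to 0.636%). Etv2 itself read 18.1 to 23.2, 48.3 to 68.9, 25.6 to 27.7 and 78.7 to 109 CPM in negative DP, positive DP, negative SP and positive SP cells, each positive group lying above its negative group. In WT DP, WT SP and iEtv2 cells it read 49.5 to 58.2, 73.9 to 118 and 232 to 250.4 CPM. Kdr, the gene of FLK1, read 340.2 to 1016 CPM over all 21 libraries, and Pdgfra 125 to 391 CPM in the DP groups against 3.18 to 59.7 CPM in the SP groups. A list of 8 endothelial markers summed to 4.55 to 8.95, 14.1 to 28.1, 14.8 to 22.1 and 47.1 to 96.3 CPM in the 4 reporter groups. In WT DP, WT SP and iEtv2 cells the sums were 8.75 to 18.2, 61.9 to 101 and 1074 to 1481 CPM. Neurog1, a marker of neurons, was at 0 in all 21 libraries, and the 11 neural markers together stayed within 19.9 to 47.6 CPM outside iEtv2 cells. In iEtv2 cells they reached 91.8 to 130.5 CPM, mostly through Stmn2 (106, 75.7 and 95.1 CPM). Of the 6 neural markers tested there, 4 were higher than in WT SP cells and 0 lower at an edgeR adjusted p below 0.05. That is 66.7%, against 50.8% of all tested genes. Among the reporter libraries, ribosomal RNA took 1.40% of counts in negative SP replicate 2 and 1.28% in positive SP replicate 3, against at most 0.432% in the others. Whether replicates were separate cultures is not said in the labels. P-values therefore measure the spread between these libraries, which may be technical. In sorted bulk samples, a lower level can come from fewer cells that express a gene or from less RNA in each, and these cannot be told apart.

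Most of the 66 genes were expressed in this mesoderm. In the reporter line 54 of them averaged at least 1 CPM and 36 at least 10 CPM, and in the second set 58 and 44 did. The filter on low counts kept 59 genes in the reporter line; Epha5, Epha6, Epha8, Ntn5, Plxnb3, Sema3c and Sema4f did not pass, with at most 0.466 CPM. It kept 62 in the second set, where Epha5, Epha6, Ntn5 and Plxnb3 did not pass, with at most 0.496 CPM. Sema3g passed in the reporter line through negative SP cells alone. In the second set Epha8, Epha10, Sema3c and Sema4f passed through iEtv2 cells alone and Epha3 through WT DP cells alone, so a difference toward those groups was built into their passing. Per length of transcript, Unc5b was the most abundant member of the reporter line (110 TPM averaged over the 12 libraries), followed by Ephb4 (63.5 TPM), Plxnb2 (60.5 TPM) and Plxna1 (44.0 TPM). Averaged over the 9 libraries of the second set, the order was Plxnd1 (212 TPM), Unc5b (188 TPM), Ephb4 (163 TPM) and Plxnb2 (107 TPM). Plxnd1 stood first there through iEtv2 cells, since in both WT groups it lay below Unc5b. In the reporter line, receptors took 66.4 ± 0.81% of member CPM in negative DP and 69.7 ± 0.702% in positive SP cells (mean ± SD, n = 3). In the second set they took 68.6 ± 0.857% in WT SP and 76.8 ± 0.275% in iEtv2 cells.

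The family totals moved in opposite directions between the sorted groups. The 4 Robo genes together gave 219 ± 26.3 CPM in negative DP and 92.3 ± 20.7 CPM in positive DP cells, while the 4 Unc5 genes gave 305 ± 69.9 and 527 ± 98.2 CPM (mean ± SD, n = 3). The Slits summed to 111 ± 6.52 CPM in negative DP, 67.5 ± 15.2 CPM in positive DP, 64 ± 5.48 CPM in negative SP and 34.2 ± 3.89 CPM in positive SP cells. In the second set the plexins rose from 31.8 ± 1.12% of member CPM in WT SP to 48.1 ± 2.52% in iEtv2 cells, and the ephrin-A genes went from 4.1 ± 0.319% to 1.64 ± 0.0799%. The stacked totals show these family levels by group. Family sums are descriptions with no test, since each is led by its most abundant genes.

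**Figure D1:**
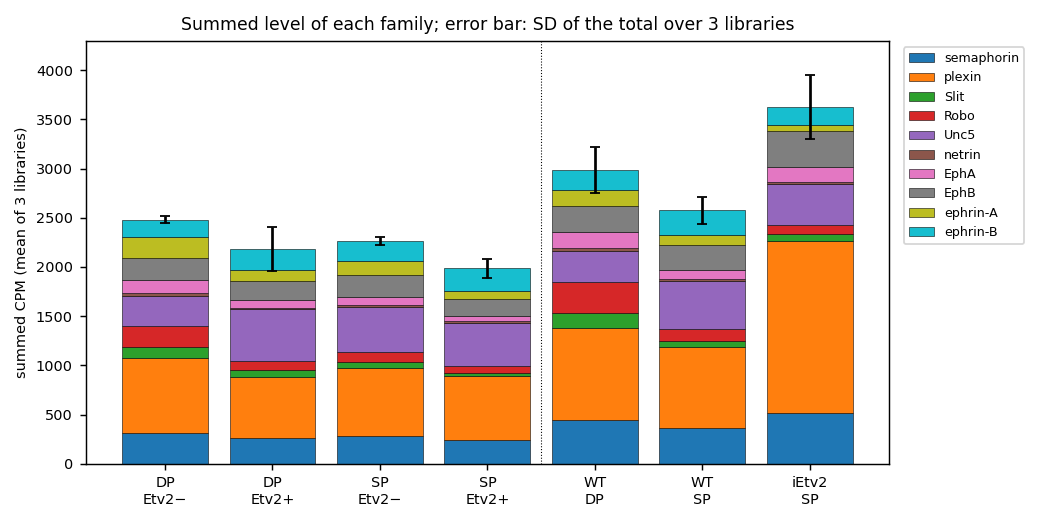
Summed CPM of the 10 gene families in each of the 7 groups, stacked (y axis, mean of 3 libraries; the error bar is the SD of the total; the x axis names the group). Totals stood between 1986 and 2480 CPM in the reporter line, where the Robo layer was thickest in negative DP cells. In the second set they were 2989 CPM in WT DP, 2576 CPM in WT SP and 3626 CPM in iEtv2 cells, where plexins held 48.1 ± 2.52% of the total.

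Between cells with and without the Etv2 reporter, and between WT and iEtv2 cells, most of the tested members differed. In DP cells 12 of 59 members were higher and 23 lower with the reporter (59.3% called at an edgeR adjusted p below 0.05), against 16% higher and 14.7% lower of all tested genes (30.7% called). In SP cells 5 were higher and 31 lower with the reporter (61.0%), against 13.1% and 12.4% of all genes (25.5%). Upper-quartile scaling shifted the split of all genes there from 2314 higher and 2190 lower to 1800 and 2653, and gave 5 members higher and 32 lower. In iEtv2 over WT SP cells 22 of 62 members were higher and 23 lower (72.6%), against 26.4% and 24.4% of all genes (50.8%). The 22 include Epha8, Sema3c and Sema4f, which passed the filter through iEtv2 cells alone. The median log2 fold change over the members was -0.25 in DP, -0.49 in SP and -0.03 in iEtv2 cells, and over all tested genes 0.00, -0.01 and 0.00. Between gates, SP cells had 8 members higher and 14 lower than DP cells among negatives (37.3%), against 6.1% and 4.84% of all genes (10.9%). Among positives the counts were 5 and 15 (33.9%), against 6.95% and 6.94% of all genes (13.9%). Among WT cells they were 8 and 18 of 62 (41.9%), against 9.08% and 6.76% of all genes (15.8%). The count among positives fell to 12 without positive SP replicate 1, to 11 without positive SP replicate 3, and to 9 without both libraries of high ribosomal RNA. With no low-count filter it rose to 31, and the count among negatives to 34. Calls that held when each library was left out in turn were 30 of 35 in DP, 26 of 36 in SP and 39 of 45 in iEtv2 cells. The heat map of fold changes shows every tested member.

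**Figure D2:**
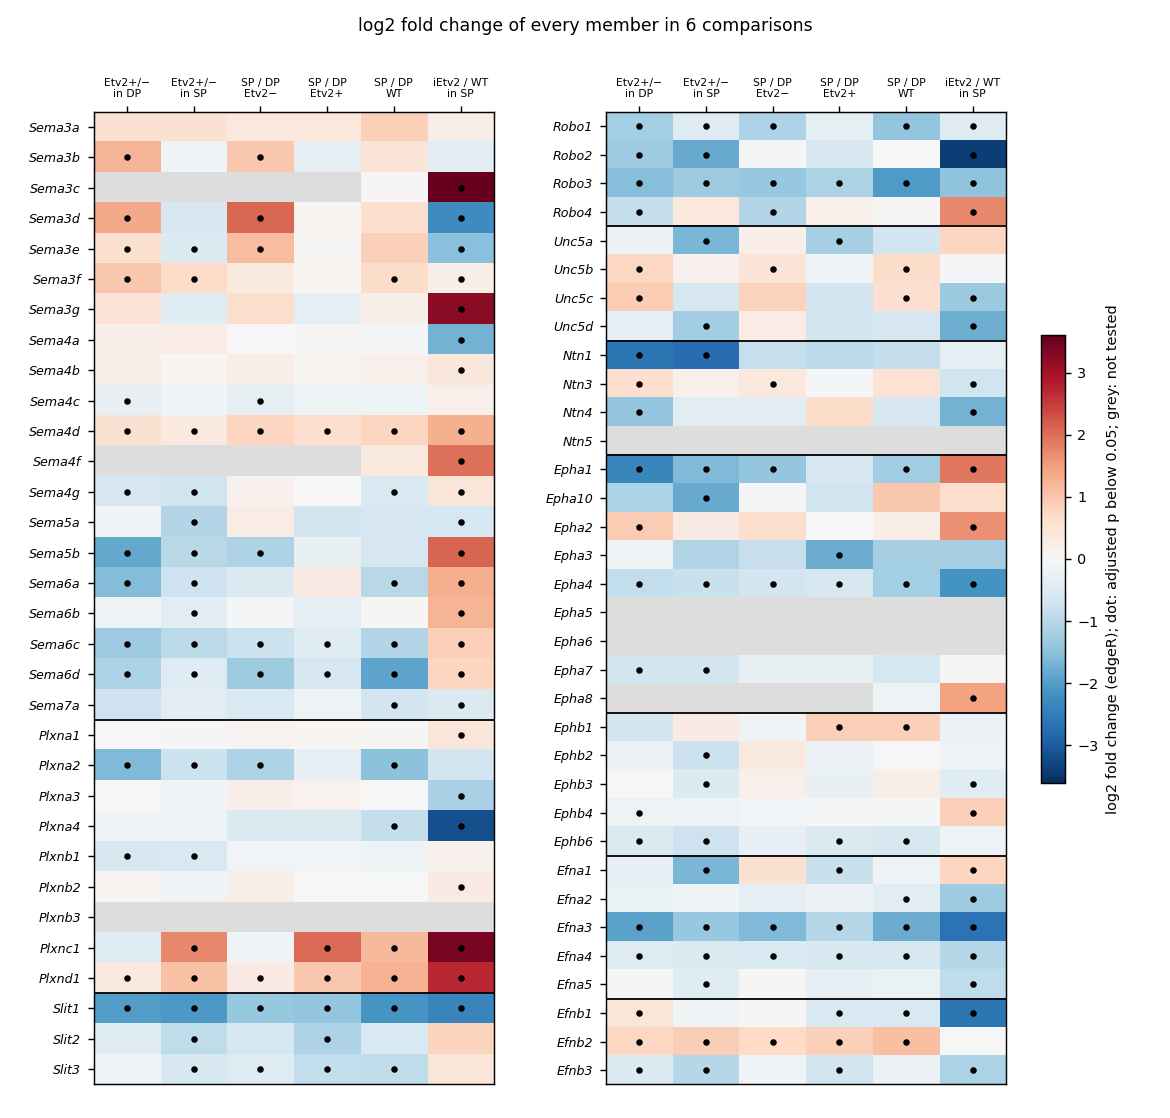
Log2 fold change (colour, limited to 3.6 in either direction) of the 66 members (rows, grouped by family) in the 6 pairwise comparisons (columns); a dot is an edgeR adjusted p below 0.05 and grey is not tested. The Slit and Robo rows hold no red dot in the reporter and gate columns, while the semaphorin and plexin rows hold most of the red dots of the iEtv2 column.

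The sequences upstream of Plxnd1, Plxnc1, Efnb2, Unc5b and Efna4 are shown because the results turn on these genes. The first 4 rose in at least 1 Etv2 comparison, and Efna4 fell in each of the 3. Each is the 250 bases before the RefSeq transcription start on GRCm38.p6, on the gene's strand. Matches to CCGGAA, a long form of the ETS site (or TTCCGG, on the other strand), are in capitals. The shorter ETS core GGAA was not marked or counted. The genes lie on the minus strand, and the windows are chr6:115995006-115995255 for Plxnd1 (ENSMUSG00000030123), chr10:94944846-94945095 for Plxnc1, chr8:8661243-8661492 for Efnb2, chr10:60831582-60831831 for Unc5b and chr3:89338029-89338278 for Efna4.
Plxnd1: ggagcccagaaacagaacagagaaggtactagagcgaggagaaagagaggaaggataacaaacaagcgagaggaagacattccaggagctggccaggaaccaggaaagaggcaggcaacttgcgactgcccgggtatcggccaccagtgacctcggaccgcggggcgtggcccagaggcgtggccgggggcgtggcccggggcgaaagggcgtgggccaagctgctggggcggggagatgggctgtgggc
Plxnc1: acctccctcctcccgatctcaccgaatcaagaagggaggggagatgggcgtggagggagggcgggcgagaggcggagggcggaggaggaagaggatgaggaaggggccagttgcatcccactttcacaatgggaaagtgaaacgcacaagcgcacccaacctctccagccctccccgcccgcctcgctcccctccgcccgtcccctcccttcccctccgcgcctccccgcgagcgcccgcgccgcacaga
Efnb2: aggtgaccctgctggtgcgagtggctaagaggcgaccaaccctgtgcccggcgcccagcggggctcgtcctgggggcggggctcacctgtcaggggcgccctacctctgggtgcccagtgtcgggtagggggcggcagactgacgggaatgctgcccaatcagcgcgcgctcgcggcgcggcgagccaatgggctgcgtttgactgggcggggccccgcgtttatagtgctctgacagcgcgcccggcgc
Unc5b: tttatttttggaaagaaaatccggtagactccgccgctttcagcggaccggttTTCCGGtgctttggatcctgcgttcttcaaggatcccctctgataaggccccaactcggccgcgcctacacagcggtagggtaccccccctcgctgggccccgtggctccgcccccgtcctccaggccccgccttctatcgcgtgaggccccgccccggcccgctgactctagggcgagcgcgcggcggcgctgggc
Efna4: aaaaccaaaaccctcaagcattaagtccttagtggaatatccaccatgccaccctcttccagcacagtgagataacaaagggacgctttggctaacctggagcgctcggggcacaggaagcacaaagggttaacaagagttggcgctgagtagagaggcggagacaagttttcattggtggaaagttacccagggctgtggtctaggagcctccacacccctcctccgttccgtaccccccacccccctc
Unc5b held the only CCGGAA match among the 5, 197 bases before the start and on the opposite strand. RefSeq windows matched 57 of the 66 members, and 7 of them (12.3%) held CCGGAA on either strand, against 3674 of 27025 genes (13.6%). The E-box CANNTG, which reads the same on both strands, was in a window of 32 of the 57 members (56.1%) and of 69.3% of all genes. For genes with several windows, a match in any of them was counted. The windows of members were richer in C and G than others, with a median of 64.4% against 52.4%; the 5 shown held 64.8, 68.8, 72.0, 66.8 and 54.4%. A match is a run of letters and not a bound site, and these windows leave out distal elements.

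Among the secreted class 3 semaphorins, ligands of plexins with neuropilins, Sema3f was higher with the reporter in both gates and higher in iEtv2 than in WT SP cells. It read 28.6, 26.3 and 32.7 CPM in negative DP and 50.6, 54.4 and 65.9 CPM in positive DP cells (log2 fold change 0.96 ± 0.10, edgeR adjusted p = 2.65e-05). The SP values were 36.5, 35.7 and 38.5 CPM without and 54, 62.1 and 61.7 CPM with the reporter (log2 fold change 0.68 ± 0.10, edgeR adjusted p = 0.000549). No positive library overlapped the negative ones of its gate. WT SP cells read 70.7, 66.7 and 77 CPM and iEtv2 cells 82.6, 87 and 79.2 CPM (log2 fold change 0.22 ± 0.07, edgeR adjusted p = 0.0269). That small difference was lost without WT SP replicate 1, WT SP replicate 2 or iEtv2 replicate 2 (adjusted p 0.0712 to 0.0791). Sema3e, the ligand of plexin-D1, went both ways. In DP it read 4.82, 6.21 and 6.33 CPM without and 8.02, 9.63 and 8.27 CPM with the reporter (log2 fold change 0.57 ± 0.18, edgeR adjusted p = 0.0251). In SP it read 13.3, 14.3 and 10.4 CPM and 10.1, 10.0 and 6.71 CPM (log2 fold change -0.50 ± 0.17, edgeR adjusted p = 0.0449). Its highest group was negative SP, and the SP groups were apart by little, since the lowest negative library stood just above the highest positive one. The DP call was lost without negative DP replicate 1 or positive DP replicate 2 (adjusted p 0.0849 to 0.105). The SP call was lost on leaving out any 1 of 6 of the 12 libraries in the fit (adjusted p 0.0505 to 0.159), and without both libraries of high ribosomal RNA (adjusted p = 0.369).

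In the second set Sema3e fell from 13.2, 20.2 and 12.6 CPM in WT SP to 4.1, 6.82 and 5.21 CPM in iEtv2 cells (log2 fold change -1.51 ± 0.28, edgeR adjusted p = 0.000989). Its receptor gene Plxnd1 had its highest level in those cells. Sema3d, a close relative, read 0.627, 0.753 and 0.808 CPM in negative DP and 1.25, 2.32 and 2.11 CPM in positive DP (log2 fold change 1.37 ± 0.37, edgeR adjusted p = 0.0127). It then read 1.49, 2.51 and 2.21 CPM in WT SP and 0.383, 0.419 and 0.474 CPM in iEtv2 cells (log2 fold change -2.27 ± 0.42, edgeR adjusted p = 0.000992). All iEtv2 libraries were below all WT SP libraries. Sema3b, a 72.3 kb neighbour of Sema3f, was higher in positive DP (2.79, 3.67 and 3.87 CPM) than in negative DP cells (0.784, 1.3 and 2.29 CPM; log2 fold change 1.23 ± 0.27, edgeR adjusted p = 0.00394). In SP its log2 fold change was -0.11, edgeR adjusted p = 0.785. Sema3g was higher in iEtv2 cells, at 0.667, 0.609 and 0.722 CPM in WT SP and 3.95, 8.19 and 6.97 CPM in iEtv2 cells (log2 fold change 3.25 ± 0.31, edgeR adjusted p = 9.8e-06). Sema3c read 0.432, 0.342 and 0.255 CPM and 4.68, 3.66 and 4.23 CPM, values given without a test because it passed the filter through iEtv2 cells alone. Both were below 1 CPM in each of the other 18 libraries. Sema3a, which repels axons through neuropilin-1, was not called in any comparison; it read 5.45 to 14.6 CPM over the 12 reporter libraries and 14.8 to 52.8 CPM over the other 9.

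Of the membrane-bound semaphorins, Sema4d, the ligand of plexin-B1, stepped up with both gate and reporter. It read 5.41, 5.18 and 6.03, then 7.32, 9.37 and 7.66 CPM in negative and positive DP cells (log2 fold change 0.55 ± 0.12, edgeR adjusted p = 0.003). In SP it read 10.1, 9.46 and 8.94 CPM without and 12, 13.1 and 11.6 CPM with the reporter (log2 fold change 0.36 ± 0.11, edgeR adjusted p = 0.0274). Sema4d lost its SP call on leaving out any 1 of 4 of the 12 libraries in the fit (adjusted p 0.061 to 0.11). From WT SP (14.1, 17.3 and 16 CPM) to iEtv2 cells (38.3, 37.3 and 39.6 CPM) it rose 2.43-fold (log2 fold change 1.28 ± 0.12, edgeR adjusted p = 7.68e-06). The groups were apart in all 3 comparisons. Sema6a, Sema6c and Sema5b had another order: lower with the reporter in both gates, higher in iEtv2 than in WT SP cells.

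Sema6c, a transmembrane cue, read 39.9, 37.6 and 38.1 CPM in negative DP and 15.4, 17.1 and 14 CPM in positive DP cells (log2 fold change -1.31 ± 0.10, edgeR adjusted p = 3.02e-06). The SP values were 20.4, 22.8 and 24.5 CPM and 11.5, 12.9 and 10.1 CPM (log2 fold change -0.97 ± 0.10, edgeR adjusted p = 5.92e-05). Yet it was higher in iEtv2 (44.3, 36.8 and 44.4 CPM) than in WT SP cells (19.8, 23.2 and 25.8 CPM; log2 fold change 0.87 ± 0.11, edgeR adjusted p = 9.59e-05). The iEtv2 level lay near that of WT DP cells, 44.4, 46.8 and 50.9 CPM. Sema6a, which binds plexins A2 and A4, gave 24.5, 24.8 and 20.2 CPM and 5.96, 10.1 and 7.35 CPM in negative and positive DP cells (log2 fold change -1.57 ± 0.21, edgeR adjusted p = 0.000156). Its SP difference was smaller (-0.74, edgeR adjusted p = 0.0217) and was lost on leaving out any 1 of 4 of the 12 libraries in the fit (adjusted p 0.0527 to 0.0962). WT SP cells gave 17.7, 26.4 and 15.1 CPM and iEtv2 cells 39.7, 50.6 and 56.8 CPM (log2 fold change 1.31 ± 0.23, edgeR adjusted p = 0.000618). Sema5b read 6.62, 8.68 and 9.26 CPM against 1.84, 3.6 and 1.46 CPM in DP (log2 fold change -1.85 ± 0.32, edgeR adjusted p = 0.000761). From WT SP to iEtv2 cells it went from 6.28, 5.48 and 5.99 CPM to 16.7, 31.1 and 28.2 CPM (log2 fold change 2.10 ± 0.21, edgeR adjusted p = 1.25e-05). In SP it gave 2.73, 4.75 and 3.99 CPM without and 1.18, 2.56 and 1.95 CPM with the reporter (log2 fold change -1.01 ± 0.33, edgeR adjusted p = 0.0414). Sema5b lost that call on leaving out any 1 of 5 of the 12 libraries in the fit (adjusted p 0.0544 to 0.144), and without both libraries of high ribosomal RNA (adjusted p = 0.206). For these 3 genes the negative and positive cells did not overlap in either gate, and neither did WT SP and iEtv2 cells. The 5 pluripotency markers had the same order: their sum was 139 to 197 CPM in negative and 34.2 to 57.0 CPM in positive DP cells, and 63.8 to 100 against 29.3 to 39.8 CPM in SP. In iEtv2 cells it was 252 to 277 CPM against 49.1 to 81.3 CPM in WT SP. Of the 5 markers, 2 were called lower with the reporter in DP (40% called, against 30.7% of all genes). In SP 4 were called lower (80%, against 25.5%), and in iEtv2 cells 5 were called higher (100%, against 50.8%). None was at 0 in a whole group, and their part in the semaphorin differences was not tested.

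Of the remaining membrane-bound members, Sema6d was lower with the reporter in DP (-1.13, edgeR adjusted p = 0.000132) and higher in iEtv2 cells (0.79, edgeR adjusted p = 0.0232). Its iEtv2 call was lost on leaving out any 1 of 4 of the 9 libraries in the fit (adjusted p 0.0674 to 0.0835). The SP difference just passed the threshold (-0.45, edgeR adjusted p = 0.0497) and was lost on leaving out any 1 of 7 of the 12 libraries in the fit (adjusted p 0.0583 to 0.168), under RLE scaling (adjusted p = 0.0529) and without both libraries of high ribosomal RNA (adjusted p = 0.307). Sema4g was lower with the reporter in DP (-0.60, edgeR adjusted p = 0.024), a call lost without negative DP replicate 3, positive DP replicate 1 or positive DP replicate 2 (adjusted p 0.0525 to 0.106). It was also lower in SP (-0.73, edgeR adjusted p = 0.0112) and higher in iEtv2 cells (0.43, edgeR adjusted p = 0.00521). Sema6b read 9.63 to 15.6 CPM over the 12 reporter libraries and was lower with the reporter in SP (-0.40, edgeR adjusted p = 0.0282), a call lost without negative SP replicate 3, positive SP replicate 2 or positive SP replicate 3 (adjusted p 0.085 to 0.107). It read 15.5, 15.2 and 19.4 CPM in WT SP against 36.9, 41.7 and 38.4 CPM in iEtv2 cells (log2 fold change 1.23 ± 0.11, edgeR adjusted p = 5.37e-06). Sema5a was called in SP, where it read 43.4, 37.3 and 53.8 CPM without and 19.6, 20.5 and 24 CPM with the reporter (log2 fold change -1.07 ± 0.23, edgeR adjusted p = 0.0049). Its negative libraries were all above the positive ones. Sema4a, at 1.71 to 2.97 CPM in the other groups, read 1.04, 0.572 and 0.711 CPM in iEtv2 cells (log2 fold change -1.71 ± 0.25, edgeR adjusted p = 0.000185). Sema4b was called higher in iEtv2 cells (0.41, edgeR adjusted p = 0.00211) and in no other comparison. Sema4f, which passed the filter through iEtv2 cells alone, read 1.69, 1.14 and 1.59 CPM there and 0.589, 0.342 and 0.17 CPM in WT SP. Sema7a was lower there (-0.53, edgeR adjusted p = 0.0175), a call lost without WT SP replicate 2, WT SP replicate 3 or iEtv2 replicate 1 (adjusted p 0.0597 to 0.0644). Sema4c was lower in positive DP cells (-0.29, edgeR adjusted p = 0.00869). Over the 18 tested semaphorins of the reporter line, 5 were called higher and 6 lower in DP (61.1%, against 30.7% of all genes), and 2 and 8 in SP (55.6%, against 25.5%).

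Plxnd1, the receptor of Sema3e, was higher with the reporter in both gates and higher in iEtv2 than in WT SP cells. Averaged over the second set it had the highest level per length of the members, through its iEtv2 libraries. It read 35.3, 35 and 39.1 CPM in negative DP and 42, 48.3 and 49.4 CPM in positive DP cells (log2 fold change 0.35 ± 0.08, edgeR adjusted p = 0.00678). In the other gate it read 42.6, 45.9 and 45.1 CPM in negative SP and 81.5, 95.7 and 99 CPM in positive SP cells (log2 fold change 1.05 ± 0.08, edgeR adjusted p = 1.33e-05). WT DP cells read 63.8, 76.3 and 63.2 CPM, WT SP cells 171, 159 and 150.4 CPM and iEtv2 cells 814, 1278 and 1056 CPM. The last step was a 6.56-fold difference (log2 fold change 2.71 ± 0.15, edgeR adjusted p = 2.5e-07). No positive library overlapped a negative one of its gate, and the lowest iEtv2 library stood above every WT library. The reporter difference was larger in SP than in DP (interaction log2 fold change 0.70 ± 0.12, edgeR adjusted p = 0.0144). That call was lost without negative DP replicate 2 (adjusted p = 0.0506) and without both libraries of high ribosomal RNA (adjusted p = 0.0532).

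Plxnc1, the receptor of Sema7a, read at most 1.39 CPM in the reporter line outside positive SP cells. It read 0.717, 1.17 and 1.23 CPM in negative SP and 2.21, 2.3 and 5.76 CPM in positive SP cells (log2 fold change 1.72 ± 0.35, edgeR adjusted p = 0.00398), while DP cells stayed at 0.735 to 1.39 CPM. From WT SP (5.93, 4.26 and 2.89 CPM) to iEtv2 cells (57.7, 40.6 and 42.9 CPM) it rose 10.8-fold (log2 fold change 3.43 ± 0.24, edgeR adjusted p = 1.08e-06). Its known ligand gene Sema7a was lower in the iEtv2 cells, as given above. The endothelial marker sum rose in the same comparisons (to 47.1 to 96.3 CPM in positive SP and 1074 to 1481 CPM in iEtv2 cells). A sum of 8 blood markers rose too, from 48.3 to 56.4 CPM in negative SP to 177 to 305 CPM in positive SP cells. It was 201 to 257 CPM in WT SP and 368 to 381 CPM in iEtv2 cells. Of 6 blood markers tested, 6 were higher with the reporter in SP (100%, against 25.5% of all genes). In iEtv2 cells 3 were higher and 3 lower (100%, against 50.8%). The part of either list in the rise of Plxnd1 and Plxnc1 was not tested.

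Class A plexins, receptors of class 3 and class 6 semaphorins, differed by gene. Plxna2 read 204, 219 and 176 CPM in negative DP, 53.4, 83.1 and 63.6 CPM in positive DP, 87.4, 100.5 and 91.1 CPM in negative SP and 55.1, 60.7 and 46.9 CPM in positive SP cells. It was lower with the reporter in both gates (log2 fold change -1.58 ± 0.14, edgeR adjusted p = 7.5e-06 in DP; log2 fold change -0.78 ± 0.14, edgeR adjusted p = 0.00193 in SP). The groups did not overlap in either gate. The iEtv2 libraries read 25.1, 75.6 and 51.7 CPM and overlapped WT SP cells (73.4, 98.2 and 74.2 CPM; log2 fold change -0.69, edgeR adjusted p = 0.0893). Plxna4 was not called by the reporter, at 30.1 to 83.2 CPM across the 12 libraries. It fell from 68.4, 90.4 and 76.7 CPM in WT SP to 6.94, 12.6 and 6.8 CPM in iEtv2 cells, 8.96-fold (log2 fold change -3.16 ± 0.28, edgeR adjusted p = 5.4e-06). Plxna3 was lower in iEtv2 cells as well (-1.16, edgeR adjusted p = 1.15e-06), and Plxna1 and Plxnb2 slightly higher (0.44, edgeR adjusted p = 0.00183; 0.31, edgeR adjusted p = 0.00187). Plxnb1 was lower with the reporter in DP (-0.56, edgeR adjusted p = 0.000262) and SP (-0.55, edgeR adjusted p = 0.000584), and its iEtv2 difference was 0.14, edgeR adjusted p = 0.363. Across semaphorins and plexins, 16 of 28 tested genes were called higher and 7 lower in iEtv2 cells (82.1%, against 50.8% of all genes). The 16 include Sema3c and Sema4f, which passed the filter through those cells alone.

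**Figure D3:**
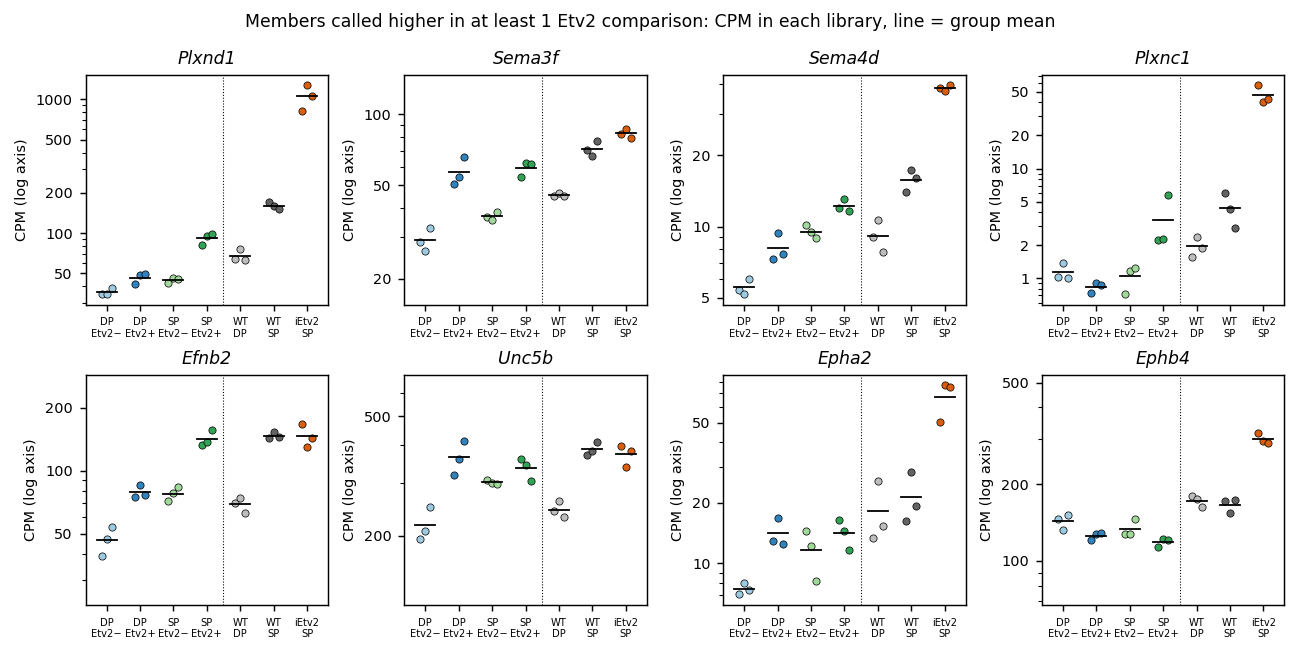
CPM (log axis) of 8 members called higher in at least 1 of the 3 Etv2 comparisons, by group; points are the 3 libraries, the short line is their mean, and the dotted line parts the separately counted sets. Plxnd1 and Plxnc1 climb steeply in iEtv2 cells, whereas Efnb2 and Unc5b sit at the same height in WT SP and iEtv2 cells.

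Slits and Robos were the system with no member called higher in any reporter or gate comparison. Of the 7 genes, 5 were lower with the reporter in DP and 6 in SP, and 1 was higher and 4 were lower in iEtv2 cells. The called shares were 71.4%, 85.7% and 71.4%, against 30.7%, 25.5% and 50.8% of all genes. Slit1, a secreted repellent, read 51.6, 48.2 and 39.1 CPM in negative DP and 10.1, 15.9 and 8.71 CPM in positive DP cells, 4.01-fold lower (log2 fold change -2.00 ± 0.21, edgeR adjusted p = 2.68e-05). In SP it read 18.8, 19.4 and 15.8 CPM without and 3.46, 5.93 and 3.53 CPM with the reporter (log2 fold change -2.06 ± 0.24, edgeR adjusted p = 9.97e-05). The WT values were 66, 50.8 and 55.6 CPM in DP and 13.4, 13.7 and 12.7 CPM in SP, and iEtv2 cells read 1.3, 4.57 and 1.89 CPM (log2 fold change -2.36 ± 0.31, edgeR adjusted p = 0.000107). Every one of these pairs of groups was apart. Slit2 and Slit3 moved less. Slit2 was lower with the reporter in SP (6.85, 6.79 and 5.42 against 3.02, 3.82 and 3.29 CPM; log2 fold change -0.91 ± 0.31, edgeR adjusted p = 0.0452). Slit2 lost this call on leaving out any 1 of 10 of the 12 libraries in the fit (adjusted p 0.052 to 0.127). Slit3 read 42.4, 39.9 and 36.5 CPM and 28.6, 27.9 and 23.2 CPM there (log2 fold change -0.58 ± 0.14, edgeR adjusted p = 0.00901), a call lost without both libraries of high ribosomal RNA (adjusted p = 0.0793). Neither was called in iEtv2 cells, where replicate 1 was the lowest library for both (8.21, 26.1 and 19.4 CPM; 33.3, 66.5 and 55.4 CPM).

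Robo1, the Robo of highest level per length in both sets, read 211, 208 and 162 CPM in negative DP and 71.9, 105 and 70.9 CPM in positive DP cells (log2 fold change -1.23 ± 0.16, edgeR adjusted p = 0.000105). The SP values were 96.1, 94.1 and 81.3 CPM and 69.5, 72.9 and 53.6 CPM (log2 fold change -0.47 ± 0.16, edgeR adjusted p = 0.0446). Robo1 lost its SP call on leaving out any 1 of 8 of the 12 libraries in the fit (adjusted p 0.0516 to 0.159), and without both libraries of high ribosomal RNA (adjusted p = 0.27). WT DP cells read 239.7, 291 and 332 CPM, and WT SP cells 99, 123 and 101 CPM (log2 fold change -1.42 ± 0.13, edgeR adjusted p = 7.56e-05). The iEtv2 cells read 68.6, 85.4 and 84.9 CPM (log2 fold change -0.43 ± 0.13, edgeR adjusted p = 0.0185). This last call was lost without WT SP replicate 2 or iEtv2 replicate 1 (adjusted p 0.081 to 0.0829). The WT gates did not overlap.

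Robo3, a receptor that lowers the response to Slits in commissural axons, read 19.8, 17.1 and 13.6, then 6.62, 7.01 and 4.03 CPM in negative and positive DP cells (log2 fold change -1.52 ± 0.22, edgeR adjusted p = 0.000231). It gave 7.42, 6.53 and 5.7 CPM and 3.1, 3.12 and 1.82 CPM in SP (log2 fold change -1.30 ± 0.24, edgeR adjusted p = 0.00245). The second set gave 3.96, 5.78 and 8.28 CPM in WT SP and 1.27, 2.67 and 2.64 CPM in iEtv2 cells (log2 fold change -1.44 ± 0.31, edgeR adjusted p = 0.00259). Each positive group lay below its negative group. Robo2 read 5.13, 6.24 and 12.3 CPM and 2.1, 3.11 and 4.34 CPM in DP (log2 fold change -1.30 ± 0.32, edgeR adjusted p = 0.0081). In SP it read 6.38, 7.02 and 9.18 CPM and 2.47, 2.34 and 1.61 CPM (log2 fold change -1.82 ± 0.34, edgeR adjusted p = 0.00227). It fell in iEtv2 cells too, from 6.16, 6.7 and 4.29 CPM to 0.767, 0.724 and 0.169 CPM (log2 fold change -3.39 ± 0.37, edgeR adjusted p = 2.86e-05). Robo2 was not called between gates (-0.07, edgeR adjusted p = 0.917 without and -0.59, edgeR adjusted p = 0.297 with the reporter; -0.02, edgeR adjusted p = 0.981 in WT).

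Robo4, the endothelial Robo, did not follow the endothelial markers in the reporter line. It read 0.941, 0.874 and 0.606 CPM in negative DP, 0.478, 0.562 and 0.31 CPM in positive DP, 0.394, 0.423 and 0.341 CPM in negative SP and 0.442, 0.593 and 0.48 CPM in positive SP cells. In DP it was lower with the reporter (log2 fold change -0.85 ± 0.28, edgeR adjusted p = 0.0328), and in SP the difference was 0.38, edgeR adjusted p = 0.405. The DP call was lost on leaving out any 1 of 4 of the 12 libraries in the fit (adjusted p 0.0595 to 0.136), in DESeq2, without a low-count filter, with the compared groups alone in the fit and without both libraries of high ribosomal RNA (adjusted p 0.0535 to 0.117). All 12 libraries were under 1 CPM, and the negative and positive groups were apart by little in each gate. In the second set WT DP cells read 3.2, 3.91 and 2.75 CPM and WT SP cells 2.28, 4.03 and 3.78 CPM, which overlapped. The iEtv2 cells, at 7.29, 12.3 and 14 CPM, lay above every WT library (log2 fold change 1.74 ± 0.27, edgeR adjusted p = 0.000333). Robo4 (chr9:37401897-37415115, plus strand) and Robo3 (chr9:37415669-37433246, minus strand) lie tail to tail with 553 bases between them, and in iEtv2 cells they moved in opposite directions.

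A list of paraxial mesoderm markers fell in sum in the same comparisons as Slit1 and Robo3. Other Slits and Robos departed from it. Slit2 and Slit3 were not called in iEtv2 cells, Robo4 was higher there, and Robo2 was not called between gates. The 8 markers of that list summed to 137 to 208 CPM in negative DP, 16.0 to 30.4 CPM in positive DP, 31.7 to 56.6 CPM in negative SP and 8.91 to 12.3 CPM in positive SP cells. In WT DP, WT SP and iEtv2 cells they summed to 249 to 284, 39.8 to 61.6 and 15.1 to 22.5 CPM. None of the 8 was at 0 in any group. Of 7 tested, 6 were lower and 1 higher with the reporter in DP (100% called, against 30.7% of all genes). In SP 5 were lower and 1 higher (85.7%, against 25.5%). Their part in the Slit and Robo differences was not tested.

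**Figure D4:**
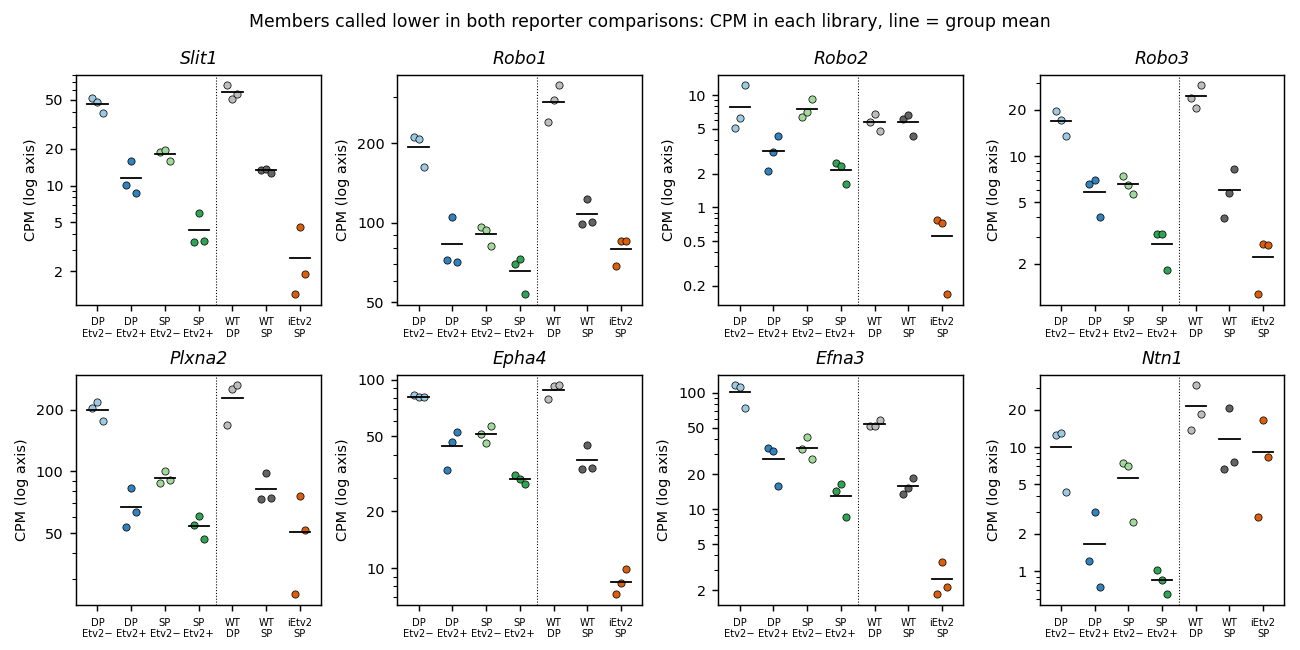
CPM (log axis) of 8 members called lower with the reporter in both gates, by group; points are the 3 libraries, the short line is their mean, and the dotted line parts the sets. Slit1, Robo3 and Efna3 are highest in negative DP and lowest in positive SP cells of the reporter line, and step down from WT DP over WT SP to iEtv2 cells, and replicate 3 is the low point of Ntn1 in both negative groups.

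Netrins were low in all groups and split by gene. Ntn1, the classical netrin, read 12.6, 12.9 and 4.38 CPM in negative DP and 1.21, 3 and 0.744 CPM in positive DP cells (log2 fold change -2.62 ± 0.52, edgeR adjusted p = 0.00218). The SP values were 7.42, 6.99 and 2.49 CPM and 1.03, 0.853 and 0.651 CPM (log2 fold change -2.74 ± 0.59, edgeR adjusted p = 0.00507). The groups were apart, but replicate 3 was low in each negative group, and the SP call was lost without both libraries of high ribosomal RNA (adjusted p = 0.0549). In the second set replicate 2 was the highest of each group for Ntn1 (13.7, 31.4 and 18.6, 6.67, 20.5 and 7.56 and 2.72, 16.6 and 8.26 CPM in WT DP, WT SP and iEtv2 cells), and the groups overlapped. Ntn4, a basement membrane netrin, was lower with the reporter in DP (4.31, 4.67 and 4.07 against 1.54, 2.4 and 0.992 CPM; log2 fold change -1.42 ± 0.24, edgeR adjusted p = 0.000761). It was lower in iEtv2 cells as well (1.96, 2.28 and 2.84 CPM in WT SP against 0.767, 0.572 and 0.812 CPM; log2 fold change -1.71 ± 0.26, edgeR adjusted p = 0.000302). Ntn3 was higher in positive DP (11.3, 11.4 and 12 CPM) than in negative DP cells (6.62, 7.2 and 8.95 CPM; log2 fold change 0.60 ± 0.11, edgeR adjusted p = 0.000967), without overlap. In iEtv2 cells it was lower (-0.73, edgeR adjusted p = 0.00708).

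The netrin receptor Unc5b was the member with the highest level per length in the reporter line. It read 195, 208 and 249 CPM in negative DP and 319.8, 361 and 414 CPM in positive DP cells, a 1.68-fold difference with no overlap (log2 fold change 0.75 ± 0.10, edgeR adjusted p = 0.000159). In SP it stood at 307, 300.0 and 296 CPM without and 359.5, 345 and 304 CPM with the reporter, which overlapped (0.16, edgeR adjusted p = 0.274). WT DP cells read 241, 261 and 231 CPM and WT SP cells 371, 383 and 409 CPM (log2 fold change 0.67 ± 0.08, edgeR adjusted p = 0.000335). The iEtv2 cells, at 399, 339 and 382 CPM, overlapped WT SP cells (log2 fold change -0.05 ± 0.08, edgeR adjusted p = 0.598). Outside the negative DP and WT DP cells, Unc5b stayed within 296 to 414 CPM in reporter cells and 339 to 409 CPM in WT SP and iEtv2 cells.

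Unc5c rose with the reporter in DP, from 56.5, 64.8 and 133 CPM to 114, 150.4 and 215 CPM (log2 fold change 0.91 ± 0.28, edgeR adjusted p = 0.0261). The groups overlapped, since negative replicate 3 stood above positive replicate 1. Unc5c lost this call without negative DP replicate 1, negative DP replicate 2 or positive DP replicate 3 (adjusted p 0.104 to 0.122) and when the fit held just the 2 groups compared (adjusted p = 0.0718). In SP Unc5c read 165, 122 and 166 CPM without and 107, 96 and 94.1 CPM with the reporter (-0.61, edgeR adjusted p = 0.127). It fell from 102, 106 and 74.8 CPM in WT SP to 38.3, 43.4 and 30.6 CPM in iEtv2 cells (log2 fold change -1.33 ± 0.16, edgeR adjusted p = 5.22e-05). Unc5d and Unc5a, near or below 3 CPM in the reporter line, were lower in positive SP cells. Unc5d read 1.9, 2.93 and 1.23 CPM without and 1.03, 0.927 and 0.617 CPM with the reporter (log2 fold change -1.24 ± 0.34, edgeR adjusted p = 0.0192). Unc5d lost that call without negative SP replicate 2 or positive SP replicate 3 (adjusted p 0.0752 to 0.091), and without both libraries of high ribosomal RNA (adjusted p = 0.235). From WT SP to iEtv2 cells it fell from 2.51, 3.61 and 3.31 CPM to 1.04, 0.839 and 0.914 CPM (log2 fold change -1.75 ± 0.25, edgeR adjusted p = 0.00017). Unc5a read 0.681, 1.01 and 0.921 CPM and 0.369, 0.223 and 0.24 CPM in SP (log2 fold change -1.64 ± 0.29, edgeR adjusted p = 0.00176).

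In positive DP cells, where Unc5b, Unc5c and Ntn3 rose, the 6 fibroblast markers summed to 370 to 555 CPM against 65.3 to 170.0 CPM in negative DP cells, led by Col1a1, with Lum and Dcn at 0 in negative DP. The 6 cardiac markers summed to 70.0 to 86.3 CPM against 37.0 to 45.4 CPM. The part of either in the netrin and Unc5 differences was not tested.

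Ephrin-B2, the arterial ephrin, rose with the reporter in both gates. Efnb2 read 39.2, 47.2 and 54.1 CPM in negative DP and 75, 85.8 and 76.8 CPM in positive DP cells (log2 fold change 0.76 ± 0.11, edgeR adjusted p = 0.000204). It read 71.6, 78.1 and 83.3 CPM in negative SP and 133, 137 and 158 CPM in positive SP cells (log2 fold change 0.88 ± 0.11, edgeR adjusted p = 0.000134). Positive DP and negative SP cells overlapped, and positive SP cells stood above all other reporter libraries. WT DP cells read 70.4, 74.4 and 62.6 CPM and WT SP cells 144, 153 and 145 CPM (log2 fold change 1.09 ± 0.10, edgeR adjusted p = 5.93e-05). The iEtv2 cells, at 168, 129.6 and 143 CPM, overlapped WT SP cells (log2 fold change -0.01 ± 0.10, edgeR adjusted p = 0.962). Etv2 itself was 2.55-fold higher there than in WT SP cells.

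Efnb1 was higher in positive DP (68.9, 72 and 86.1 CPM) than negative DP cells (55.3, 52.6 and 58.5 CPM; log2 fold change 0.45 ± 0.09, edgeR adjusted p = 0.00314) and gave -0.14, edgeR adjusted p = 0.299 in SP. It then fell 6.21-fold in iEtv2 cells, from 45.2, 45.5 and 51.2 CPM in WT SP to 8.51, 8.27 and 6.09 CPM (log2 fold change -2.64 ± 0.13, edgeR adjusted p = 1.19e-07). Efnb3 was lower with the reporter in both gates (-0.49, edgeR adjusted p = 0.00852 in DP; -1.01, edgeR adjusted p = 0.000172 in SP). It was lower in iEtv2 cells too (51.5, 54.1 and 62 against 21.1, 29.7 and 25.9 CPM; log2 fold change -1.13 ± 0.13, edgeR adjusted p = 4.34e-05). The 3 ephrin-B genes, the membrane-spanning ephrins, thus had 3 different patterns.

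The ephrin-A genes, whose products are tethered by a lipid anchor, fell or were not called in every reporter comparison. Efna3 read 116, 112 and 74.5 CPM in negative DP and 33.3, 31.7 and 15.8 CPM in positive DP cells, 3.77-fold lower (log2 fold change -1.91 ± 0.28, edgeR adjusted p = 0.000282). In SP it gave 32.7, 41.8 and 27 CPM and 14.4, 16.3 and 8.5 CPM (log2 fold change -1.38 ± 0.30, edgeR adjusted p = 0.0051), a call lost without both libraries of high ribosomal RNA (adjusted p = 0.0619). WT DP cells read 51.8, 51.8 and 58.1 CPM, WT SP cells 13.4, 15.1 and 18.6 CPM and iEtv2 cells 1.84, 3.51 and 2.13 CPM (log2 fold change -2.66 ± 0.21, edgeR adjusted p = 2.36e-06). Efna4, 10.4 kb from Efna3, made smaller and more even steps. It gave 33, 31.6 and 28.8, then 24.5, 23.1 and 19.9 CPM in negative and positive DP cells (log2 fold change -0.47 ± 0.09, edgeR adjusted p = 0.00149), and 19.8, 23 and 21.2 CPM and 14.9, 15.6 and 14.6 CPM in SP (log2 fold change -0.51 ± 0.09, edgeR adjusted p = 0.00183). WT SP cells read 16.2, 15.5 and 19.2 CPM and iEtv2 cells 8.28, 8.35 and 8.49 CPM (log2 fold change -1.02 ± 0.11, edgeR adjusted p = 2.74e-05). None of these pairs of groups overlapped.

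Efna1, 32.8 kb on the other side of Efna3, did not share that order. Its highest group was negative SP (28.2, 22.4 and 35.1 CPM), above positive SP cells (11, 9.79 and 6.51 CPM; log2 fold change -1.65 ± 0.25, edgeR adjusted p = 0.000584). In DP it was not called (-0.29, edgeR adjusted p = 0.405). In iEtv2 cells (12.5, 22 and 21.4 CPM) it was higher than in WT SP cells (9.46, 10.8 and 12.4 CPM; log2 fold change 0.78 ± 0.20, edgeR adjusted p = 0.00668). Efna2 and Efna5 were called in iEtv2 cells, both lower (-1.27, edgeR adjusted p = 2.48e-06; -0.91, edgeR adjusted p = 0.000136). In the annotation (GENCODE M21) 14.1% of the exon length of Efna3 and 10.5% of Efna4 overlap a gene on the opposite strand, Gm15998 and 4731419I09Rik, and 6.01% of Epha1 overlaps Zyx. In the same way 7.27% of the exon length of Sema4c and 10.7% of that of Plxna1 lie opposite the exons of another gene. The counting strand is not given in the sources used here, so those parts of their counts are uncertain.

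The called Eph receptors of both classes were lower with the reporter in SP, and in DP all but Epha2 were. Epha4, which binds ephrins of both classes, read 82.3, 80.4 and 81.1 CPM in negative DP, 33.2, 46.7 and 52.5 CPM in positive DP, 51.2, 46 and 56.7 CPM in negative SP and 31.1, 29.7 and 27.8 CPM in positive SP cells. It was lower with the reporter in DP (log2 fold change -0.88 ± 0.13, edgeR adjusted p = 0.000252) and in SP (log2 fold change -0.80 ± 0.13, edgeR adjusted p = 0.00103). It fell 4.41-fold from 33.7, 44.8 and 34 CPM in WT SP to 7.25, 8.31 and 9.88 CPM in iEtv2 cells (log2 fold change -2.14 ± 0.15, edgeR adjusted p = 9.82e-07). The groups did not overlap in any of the 3 comparisons. Epha1 was also lower with the reporter, from 45.4, 43.3 and 24.8 CPM to 8.53, 8.77 and 5.11 CPM in DP (log2 fold change -2.35 ± 0.30, edgeR adjusted p = 9.47e-05). In SP it went from 15.2, 19.2 and 9.18 CPM to 6.12, 4.78 and 3.7 CPM (log2 fold change -1.58 ± 0.31, edgeR adjusted p = 0.00322). In iEtv2 cells it went the other way, to 44, 80.8 and 72.1 CPM from 13.1, 24.4 and 15.7 CPM in WT SP (log2 fold change 1.89 ± 0.27, edgeR adjusted p = 0.000163), again without overlap.

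Epha2, an Eph receptor of many epithelia and of vessels, was higher in positive DP (12.9, 16.9 and 12.5 CPM) than in negative DP cells (7.01, 7.99 and 7.41 CPM; log2 fold change 0.91 ± 0.19, edgeR adjusted p = 0.00315). SP cells overlapped (0.28, edgeR adjusted p = 0.294), and iEtv2 cells, at 50.2, 76.8 and 75.7 CPM, stood above WT SP cells, at 16.2, 28.6 and 19.3 CPM (log2 fold change 1.66 ± 0.27, edgeR adjusted p = 0.000413). Epha7 was lower with the reporter in DP (-0.70, edgeR adjusted p = 0.00297) and SP (-0.70, edgeR adjusted p = 0.00509) and gave 0.06, edgeR adjusted p = 0.867 in iEtv2 cells. Epha3, Epha5, Epha6, Epha8 and Epha10 did not exceed 1.58 CPM in any library. Of these, Epha10 was called lower in positive SP cells (-1.83, edgeR adjusted p = 0.0352), which was lost on leaving out any 1 of 4 of the 12 libraries in the fit (adjusted p 0.0611 to 0.13). Epha8, which passed the filter through iEtv2 cells alone, read 0.422, 0.572 and 0.44 CPM there and 0.196, 0.19 and 0.127 CPM in WT SP.

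Ephb4, the venous receptor of ephrin-B2, varied little in the reporter line. It read 146, 132 and 151 CPM in negative DP, 120.5, 128 and 128 CPM in positive DP, 127, 128 and 146 CPM in negative SP and 113, 122 and 121 CPM in positive SP cells. The DP difference just passed the threshold (log2 fold change -0.19 ± 0.07, edgeR adjusted p = 0.0498), and the SP difference was -0.17, edgeR adjusted p = 0.0843. Ephb4 lost the DP call on leaving out any 1 of 10 of the 12 libraries in the fit (adjusted p 0.0592 to 0.173). In iEtv2 cells it read 318, 295 and 291 CPM against 172, 155 and 173 CPM in WT SP (log2 fold change 0.86 ± 0.07, edgeR adjusted p = 3.95e-06), with no overlap. So between WT SP and iEtv2 cells the receptor gene was 1.81-fold higher while the ligand gene Efnb2 gave a log2 fold change of -0.01. Ephb2, Ephb3 and Ephb6 were lower with the reporter in SP (-0.77, -0.49 and -0.74 on the log2 scale; edgeR adjusted p = 0.00475, 0.00333 and 0.00272). Ephb1 was not called by the reporter and stayed within 0.699 to 2.23 CPM. Of 19 tested ephrins and Eph receptors, 3 were higher and 8 lower in DP (57.9%, against 30.7% of all genes) and 1 and 12 in SP (68.4%, against 25.5%). Of 20 tested in the second set, 5 were higher, Epha8 among them, and 8 lower in iEtv2 cells (65.0%, against 50.8%).

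**Figure D5:**
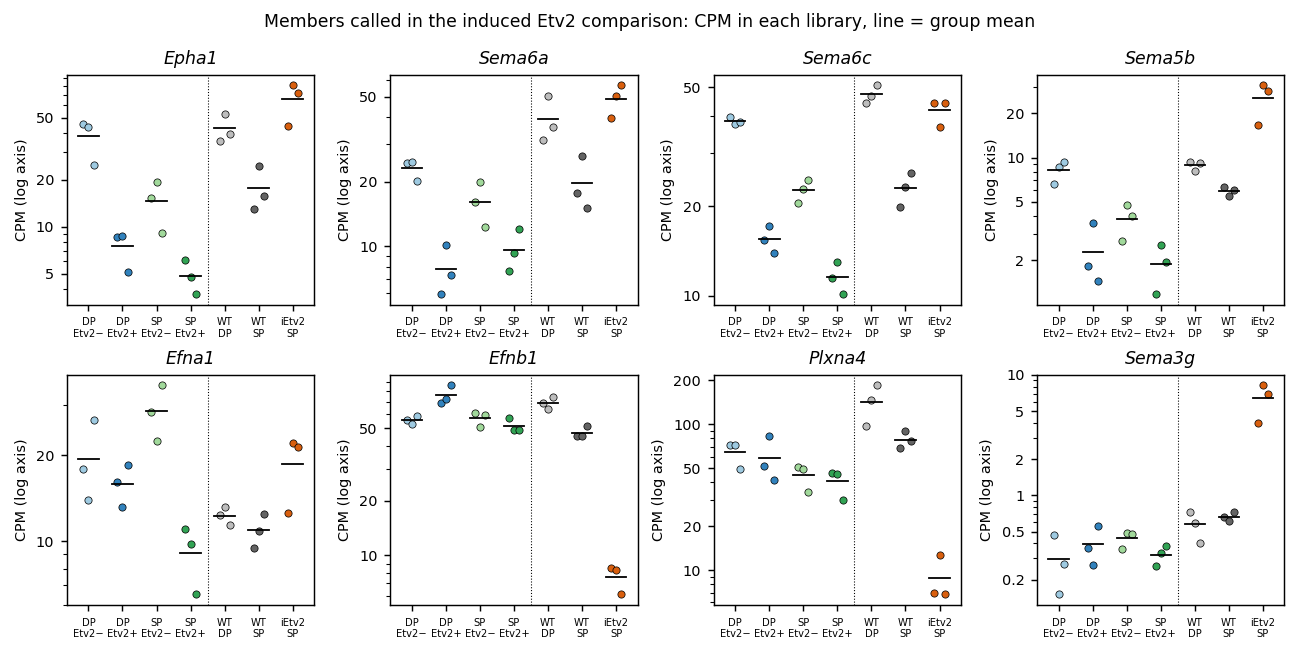
CPM (log axis) of 8 members called in the iEtv2 comparison, by group; points are the 3 libraries, the short line is their mean, and the dotted line parts the sets. Epha1, Sema6a, Sema6c and Sema5b drop with the reporter and are higher in iEtv2 than in WT SP cells, while Efnb1 and Plxna4 fall to under 15 CPM in iEtv2 cells.

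Cells with the reporter and cells with induced Etv2 shared some calls and differed in others. These comparisons share no libraries, but DP and SP libraries of the same replicate number also correlated, so the reporter comparisons of DP and SP may not be independent. Of the 12 members higher in DP and the 5 higher in SP, 4 were higher in both (33.3% and 80.0%), and of the 23 and 31 lower members 19 were lower in both (82.6% and 61.3%). Over all genes 44.5% and 54.4% of the higher calls and 47.4% and 56.5% of the lower calls were shared in the same way. Sema3e alone was called in opposite directions. Of 59 members tested in all 3, Plxnd1, Sema3f and Sema4d were higher and Efna3, Efna4, Efnb3, Epha4, Robo1, Robo2, Robo3 and Slit1 lower in the reporter comparisons of both gates and in iEtv2 cells. Of all genes tested in the 3, 2.01% were higher and 1.71% lower in each. The iEtv2 call of Sema3f, the SP call of Sema4d and both of those calls of Robo1 did not hold without each library in turn. On the other hand 8 of the 23 members lower in DP were higher in iEtv2 cells, namely Epha1, Ephb4, Robo4, Sema4g, Sema5b, Sema6a, Sema6c and Sema6d (34.8%). The share over all genes was close to that, at 35.1%. The DP calls of Ephb4, Robo4 and Sema4g did not hold without each library in turn. Of the 31 lower in SP, 8 were higher there (25.8%, against 36.7% of all genes), with Efna1 and Sema6b in place of Ephb4 and Robo4; the SP calls of Sema6a, Sema6b, Sema6d and Sema5b did not hold without each library in turn. In turn 5 of the 12 members higher in DP were lower in iEtv2 cells, namely Efnb1, Ntn3, Sema3d, Sema3e and Unc5c (41.7%, near the 40.1% of all genes). The iEtv2 cells also differed in marker lists. Beside the pluripotency markers given above, cardiac markers summed to 2.72 to 3.89 CPM against 48.2 to 57.4 CPM in WT SP. The 4 neural crest markers, led by Ets1, summed to 332 to 377 against 96.0 to 119 CPM. Of the 3 tested, 2 were called higher and 1 lower (50.8% of all genes were called), so the sum does not speak for that whole list. The part of these lists in the member differences was not tested.

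The reporter difference itself differed between gates for 8 of 59 tested members, 3 with a more positive and 5 with a more negative value in SP (13.6%), against 1.52% and 2.45% of all genes (3.97%). With the replicate number, which pairs negative and positive libraries, as a block in the fit, 16 members (7 and 9) and 1537 genes were called, and the 8 calls held (adjusted p 0.00127 to 0.0286). Plxnc1 (log2 fold change 2.17 ± 0.54, edgeR adjusted p = 0.0419), Plxna2 (log2 fold change 0.80 ± 0.20, edgeR adjusted p = 0.042) and Plxnd1 were more positive in SP. Sema3d (log2 fold change -1.96 ± 0.48, edgeR adjusted p = 0.0418), Efna1 (log2 fold change -1.36 ± 0.34, edgeR adjusted p = 0.0446) and Sema3e (log2 fold change -1.07 ± 0.24, edgeR adjusted p = 0.0337) were more positive in DP. So were Unc5b (log2 fold change -0.59 ± 0.14, edgeR adjusted p = 0.0415) and Efnb1 (log2 fold change -0.59 ± 0.13, edgeR adjusted p = 0.0341). Each of these 8 calls was lost without at least 1 single library. The number of members called fell to 0 without negative DP replicate 2 and to 1 to 3 without negative DP replicate 1, positive DP replicate 3, any negative SP library, positive SP replicate 2 or positive SP replicate 3. It rose to 16 without negative DP replicate 3, and was 0 without both libraries of high ribosomal RNA.

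Between gates, where PDGFRalpha is the sorting difference, Slits, Robos and ephrin-A genes were among the members lower in SP. In WT cells, SP had lower Slit1 (-2.11, edgeR adjusted p = 0.0005), Robo3 (-2.03, edgeR adjusted p = 0.000728), Sema6d (-1.90, edgeR adjusted p = 0.000693), Efna3 (-1.78, edgeR adjusted p = 9.95e-05) and Plxna2 (-1.47, edgeR adjusted p = 0.0094). SP also had higher Plxnd1 (1.24, edgeR adjusted p = 0.000302), Efnb2, Sema4d (0.78, edgeR adjusted p = 0.00167) and Unc5b than DP. Among reporter-negative cells the values were -1.36, -1.36, -1.28, -1.58 and -1.10 for Slit1, Robo3, Sema6d, Efna3 and Plxna2, and 0.29, 0.73, 0.78 and 0.47 for Plxnd1, Efnb2, Sema4d and Unc5b. All 9 were called. However, the call of Plxnd1 was lost on leaving out any 1 of 8 of the 12 libraries in the fit (adjusted p 0.0502 to 0.205) and that of Unc5b without negative DP replicate 1 or negative DP replicate 2 (adjusted p 0.0631 to 0.073). Sema3d was higher in negative SP (3.26, 2.41 and 3.58 CPM) than in negative DP cells (log2 fold change 2.06 ± 0.35, edgeR adjusted p = 0.00291). Among positives Plxnc1 (2.04, edgeR adjusted p = 0.00381), Plxnd1 (0.98, edgeR adjusted p = 5.8e-05) and Efnb2 (0.85, edgeR adjusted p = 0.000554) were higher in SP, and Slit1 (-1.42, edgeR adjusted p = 0.00274) and Slit3 (-0.88, edgeR adjusted p = 0.00181) were lower. The gate comparisons share groups with the reporter comparisons, so their values are given side by side only.

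Binding partners and effectors outside the 66 genes were read from 2 lists. Of 17 coreceptors and other partners, 15 were tested in the reporter line, 4 being higher and 5 lower with the reporter in DP (60.0%, against 30.7% of all genes) and 2 and 4 in SP (25.5% of all genes). In iEtv2 cells 1 was higher and 9 lower (66.7%, against 50.8%). Flrt3, a partner of Unc5 and Robo receptors, read 7.45, 7.17 and 11.1 CPM in negative DP and 38.7, 44.1 and 34.7 CPM in positive DP cells (log2 fold change 2.19 ± 0.18, edgeR adjusted p = 4.35e-06). It was higher with the reporter in SP as well (1.01, edgeR adjusted p = 0.000961). In contrast it fell from 29.7, 45 and 35.7 CPM to 10.7, 8 and 9.74 CPM in iEtv2 cells (log2 fold change -1.95 ± 0.17, edgeR adjusted p = 6.03e-06). Ntng1, a netrin-G, was lower in all 3 comparisons (-1.76, -2.36 and -2.55). L1cam, a neural adhesion molecule that binds neuropilin-1, dropped from 48.6, 58.1 and 61.5 CPM to 0.805, 3.35 and 1.52 CPM in iEtv2 cells (log2 fold change -4.89 ± 0.34, edgeR adjusted p = 1.17e-06). Draxin went from 5.93, 7.19 and 6.66 CPM to 0.729, 0.953 and 1.15 CPM (log2 fold change -2.79 ± 0.18, edgeR adjusted p = 6.54e-07). Dcc, the netrin receptor of axons, did not exceed 0.338 CPM. Of 28 cytoplasmic effectors, 5 were higher and 5 lower in DP (35.7%, near the 30.7% of all genes), 3 and 2 in SP (17.9%, below the 25.5%), and 16 and 5 in iEtv2 cells (75.0%, against 50.8%). Srgap1, a Robo effector (2.46, edgeR adjusted p = 6.32e-07), and Vav3, an Eph effector (2.30, edgeR adjusted p = 5.76e-07), rose most in iEtv2 cells, and Dpysl5, a collapsin response protein, was lower in all 3 (-1.62, -1.50 and -1.49).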

How the data were processed

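The authors deposited raw counts per gene, without normalization: 1 table of the 12 reporter-line libraries and 9 files of single libraries. The submitters' processing notes name featureCounts and the genome build mm10; per the labels' protocols, libraries were made with the TruSeq Stranded Total RNA kit. The aligner, the gene annotation and the strand setting are not given in the sources used here. Genes were named from GENCODE M21 (GRCm38), which matched 55227 of 55487 IDs; rows that name no gene were left out. Each set was fitted on its own with edgeR 4.0.16 (R 4.3.3): filterByExpr (10 counts, 15 in total), TMM, a group term and the two-sided quasi-likelihood test, with Benjamini-Hochberg adjustment over all 17690 or 16288 genes tested and a threshold of 0.05. TPM uses merged exon lengths. The code was tested on simulated data. The members and lists were chosen with earlier results of these data known. In each comparison and system, up to 4 called members per direction with at least 1 CPM were named, with Efnb2, Ephb4, Plxnd1, Robo4 and Unc5b; other members were named after their values were seen.

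Replicates of the same number correlated across negative and positive cells (0.175 to 0.342 in DP, 0.143 to 0.268 in SP, deviations from group means), so the numbers pair those libraries, as inferred from the data; a fit with the replicate block was an alternative. In the gate comparisons every library also correlated best with its own number (0.077 to 0.342, against at most 0.088 for different numbers), though not every pair exceeded 0.1. Between WT SP and iEtv2 cells this was not so. Further alternatives were DESeq2 1.42.0, scaling by RLE or upper quartile, dropping the filter or setting it at 1 CPM, fitting the compared groups alone, no mitochondrial or ribosomal RNA genes, and leaving out each library or both of high ribosomal RNA. Raw counts bound precision through counting error only.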

Additional observations from a re-analysis of the deposited data

Results flagged for a closer look

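The reporter difference differed between the gates, by the edgeR interaction term, for 8 members. On the log2 scale the SP difference minus the DP difference was 2.17 for Plxnc1, 0.80 for Plxna2, 0.70 for Plxnd1, -0.59 for Efnb1, -0.59 for Unc5b, -1.07 for Sema3e, -1.36 for Efna1 and -1.96 for Sema3d. Sema3e was the member called in opposite directions in the 2 gates. None of the 8 calls held without each single library in turn. Every group has 3 libraries, so no test of a single library far from the others was made.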

How the results depend on the processing

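Of 2934 named-member values under the alternatives, 2668 kept their direction and side of the threshold, 244 kept the direction and lost the call, 1 gained it (Ephb4 in SP under upper-quartile scaling, -0.21, adjusted p = 0.0386) and 21 changed sign, all of the latter values that were not called. Those were Robo4 between positive gates (-0.039 without positive DP replicate 3, range without 1 library to 0.37) and WT gates (-0.010 with the replicate block, and -0.13 to 0.24 without 1 library, below 0 at -0.076, -0.13 and -0.065), Ephb4 in the interaction (-0.021 to 0.089 without 1 library, below 0 at -0.021, -0.018, -0.019, -0.015 and -0.0020, and -0.030 without both libraries of high ribosomal RNA), Efnb2 in iEtv2 cells (0.0012 with the 1 CPM filter, 0.015 with no filter, 0.0019 with upper-quartile scaling, and -0.10 to 0.095 without 1 library, above 0 at 0.0067, 0.0061, 0.036, 0.095 and 0.014) and Unc5b there (-0.093 to 0.030 without 1 library, above 0 at 0.0012 and 0.030). Without any 1 library, members called ranged over 31 to 36 (DP reporter), 28 to 37 (SP reporter), 15 to 25 (negative gates), 11 to 22 (positive gates), 0 to 16 (interaction), 18 to 31 (WT gates) and 42 to 46 (iEtv2), and all genes over 4022 to 5455, 3232 to 5270, 787 to 2381, 1342 to 2493, 50 to 1268, 1509 to 2727 and 6834 to 8782. Without both libraries of high ribosomal RNA all genes called were 2459 (SP reporter), 1106 (positive gates) and 119 (interaction), and members 9 and 0 in the last 2. With no low-count filter members called were 34 (negative gates), 31 (positive gates) and 23 (interaction), and all genes 1740 in the interaction. With only the compared groups the positive gates gave 12 members and 1324 genes. DESeq2 gave 14 members and 1269 genes in the interaction, and the replicate block 16 and 1537. With the replicate block, members called were 39 in DP and 37 in SP, and no named call of these 2 paired comparisons changed. Upper-quartile scaling moved the split of all genes in the SP reporter comparison to 1800 higher and 2653 lower (40.4% higher, from 51.4%). Which of these moves come from fewer or more libraries and genes, and which from other causes, was not tested. Depth limits the members under 1 CPM: 3 counts are 0.0915 to 0.134 CPM.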
